A study of Glycine max with 14 samples.

Results

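Seed coats of soybean (Glycine max) were compared at the change from seeds of 300–400 mg with green cotyledons to seeds of 400–500 mg, across all gene models and in both lines of the study together. The comparison took 8 of the 14 RNA-Seq libraries of the series, 4 per stage, chosen by their labels alone. RM30-R* has black seed coats and genotype i,R*,T. It is a stable revertant of the striped mutable line RM55-rm and keeps the CACTA transposon TgmR* in Intron2 of the *R* gene. RM38-r has brown seed coats and genotype i,r,T, and its r allele lacks a C in Exon2 of that gene. Each line is homozygous and served as the only representative of its allele, so the allele and the rest of the line's background cannot be told apart. Plants of both lines grew in a greenhouse without treatment, and a stage is the fresh weight of the whole seed from which the coat was dissected. At 300–400 mg the libraries were R123 and R154 (RM30-R*) and R125 and R156 (RM38-r). At 400–500 mg they were R111 and R155 (RM30-R*) and R113 and R157 (RM38-r). The number of seeds or plants in a library was not given in the sources used here, so the p-values measure only the spread between these libraries, which may be in part technical. Values below are given for RM30-R* and then RM38-r, and within a line for the number series R111 to R125 before R154 to R157. The number series was read from the library numbering, and the labels do not name it as a batch. Within R111 to R125, the 400–500 mg libraries have the lower numbers (R111 and R113) and the 300–400 mg libraries the higher (R123 and R125). In that series, the stage and any difference that goes with these numbers cannot be told apart, and the covariate does not remove it. In the study, the libraries of the 2 series at 400–500 mg were extracted and sequenced independently, and the second is called a biological replicate.

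The soybean seed coat is maternal tissue that surrounds the embryo, passes nutrients to it while the seed fills, and later dries to a protective layer. Its colour comes from flavonoids made in the epidermis. Chalcone synthase starts the pathway, hydroxylases set the pattern of the B ring, and dihydroflavonol reductase, anthocyanidin synthase and a glucosyltransferase lead to anthocyanins, the black pigments. The *R* gene encodes a MYB transcription factor that is needed for black coats. At 400–500 mg the green seed is near its largest weight, and the next stage of the series is the desiccating seed.

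The 8 libraries held 49509764 to 88820981 mapped alignments, so that 0.5 RPKM (reads scaled to the length of the gene model and to all mapped alignments) in a gene model of 1 kb stands for 24.8 to 44.4 reads. Log2 values of the libraries correlated pairwise with r between 0.90 and 0.99 over 40334 gene models. Replicate libraries of a line and stage correlated at 0.95 to 0.96, all pairs of the same stage at 0.90 to 0.99, and pairs of different stages at 0.92 to 0.96. Within a number series, the lines correlated at 0.986 (R111 and R113) and 0.979 (R155 and R157) at 400–500 mg. At 300–400 mg these values were 0.936 (R123 and R125) and 0.926 (R154 and R156). A group of 28 gene models with neighbouring numbers on chromosome 13 took very unequal shares of the summed RPKM. At 300–400 mg it held 1.91 and 6.07% in RM30-R* and 36.2 and 6.09% in RM38-r. At 400–500 mg it held 4.20 and 0.743% in RM30-R* and 19.1 and 0.659% in RM38-r. For this reason the columns were rescaled to equal 75th percentiles without that group, and all levels below are rescaled RPKM unless stated. All 28 gene models had lower fitted values at 400–500 mg (log2 fold changes of −1.93 to −1.27), and none passed the test, with a lowest limma adjusted p of 0.389. In these bulk samples, fewer cells of a type and less RNA per cell cannot be told apart. Names of marker genes for other tissues of the seed were not paired with the gene models in the sources used here, so the seed coat label could not be checked against markers.

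At 400–500 mg, 128 gene models of 110 loci had risen and 33 gene models of 25 loci had fallen relative to 300–400 mg (limma on log2 of rescaled RPKM plus 0.5, line and number series as covariates, Benjamini-Hochberg adjusted p under 0.05). These are 0.317 and 0.0818% of the 40334 gene models tested. An unadjusted p under 0.05 was found for 3875 gene models with a higher and 2606 with a lower value. The median log2 fold change of all gene models was 0.04. Among the 128, the log2 fold change ran from 0.58 to 4.25 with a median of 1.32, and 96 rose by more than 2-fold and 21 by more than 4-fold. Among the 33, it ran from −2.46 to −0.79 with a median of −1.03, and 19 fell by more than 2-fold and 3 by more than 4-fold. The called gene models were not the most abundant of the seed coat. Their median level over the 8 libraries was 6.86 RPKM for those that rose and 6.51 RPKM for those that fell, beside 4.86 RPKM over all gene models tested, and the most abundant of them had a mean of 81.4 RPKM, as the plot of all gene models shows. The number of calls rests on having all 8 libraries. When each library was left out in turn, 0 to 87 gene models were called higher and 0 to 20 lower, and only without R156 did the number called higher stay within 1.5 times of 128. Without R125, R113 or R155 no gene model was called in either direction, with 2245 to 3581 higher and 1472 to 2451 lower at an unadjusted p under 0.05. On the deposited RPKM without rescaling, 208 gene models were called higher and 11 lower. Without the filter on low values, where 58222 gene models were tested, 4 were called higher and none lower (3113 lower at an unadjusted p under 0.05).

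**Figure D1:**
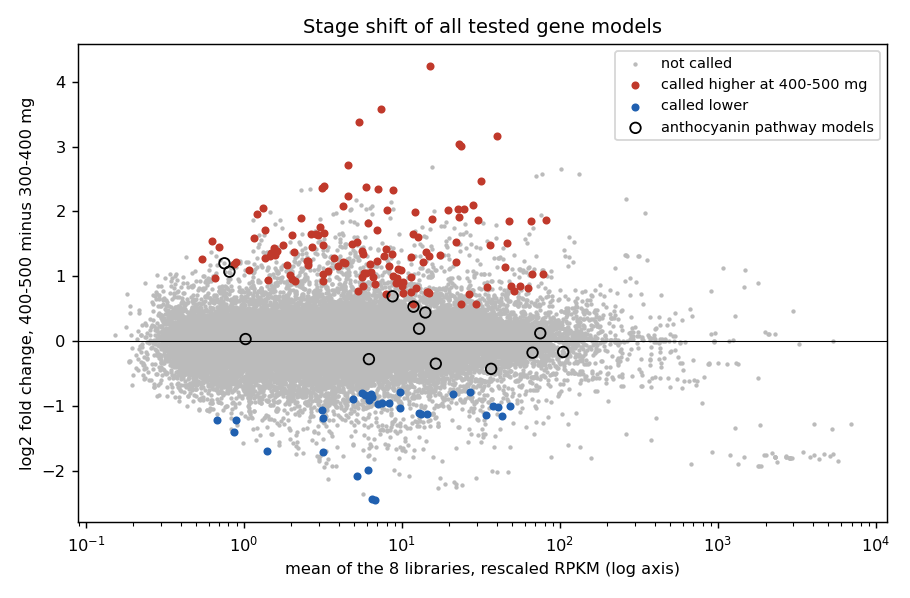
Each point is 1 of 40334 gene models, with its mean rescaled RPKM over the 8 libraries on a log axis and its log2 fold change from 300–400 to 400–500 mg on the vertical axis. The 128 gene models called higher reach 4.25 and the 33 called lower reach −2.46, while the 13 pathway models (open circles) lie among the grey points that were not called.

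The strongest rise was that of Glyma13g08190, a locus on chromosome 13 for which no function is given in the sources used here. It was low at 300–400 mg, with 0.439 and 0.620 RPKM in RM30-R* and 2.01 and 1.23 RPKM in RM38-r. In the later seed coats the level was 28.7 and 14.8 RPKM in RM30-R* and 43 and 30.4 RPKM in RM38-r. All libraries of the later stage were thus above all libraries of the earlier, with means of 1.07 ± 0.707 and 29.2 ± 11.6 RPKM (SD, n = 4). This is a log2 fold change of 4.25 (standard error 0.19) with an adjusted p of 0.00442 by limma, and it was 4.36 in RM30-R* and 4.14 in RM38-r. The next was Glyma14g30940 on chromosome 14. Its level was 0.149 and 0.515 RPKM in RM30-R* and 1.22 and 1.22 RPKM in RM38-r at 300–400 mg, and 12.0, 9.91, 18.3 and 16.2 RPKM in the same order at 400–500 mg. The stages did not overlap, and within each stage both RM38-r libraries were above both RM30-R* libraries. The shift of 3.59 on the log2 scale had a standard error of 0.18 and an adjusted p of 0.00442 by limma. Without R125, R113 or R155 the adjusted p of both loci rose to between 0.0539 and 0.0746, with log2 fold changes of 4.26 to 4.35 for Glyma13g08190 and 3.59 to 3.66 for Glyma14g30940.

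The strongest fall by the rule for named genes was that of Glyma13g23950 on chromosome 13, from 21.6 and 10.7 RPKM in RM30-R* and 7.28 and 8.33 RPKM in RM38-r to 1.37, 1.82, 1.21 and 1.99 RPKM. The libraries of both lines came together at the later stage, whereas at 300–400 mg both RM30-R* libraries were above both RM38-r libraries. The shift of −2.46 on the log2 scale had a standard error of 0.30 and an adjusted p of 0.0362 by limma. It was followed by Glyma09g36840, a gene model on chromosome 9 near the *R* gene that earlier work had proposed as a candidate for the *R* locus. The earlier libraries had 7.76 and 6.85 RPKM in RM30-R* and 6.31 and 14.2 RPKM in RM38-r. The later ones had 1.36 and 2.44 RPKM in RM30-R* and 0.898 and 1.92 RPKM in RM38-r. Every library of the later stage was below every library of the earlier. The log2 fold change of −2.09 had a standard error of 0.24 and an adjusted p of 0.0342 by limma. It was −1.73 in RM30-R* and −2.44 in RM38-r, and the lines did not differ in it detectably (interaction 0.71, standard error 0.43). When each library was left out in turn, the adjusted p ran from 0.0325 to 0.208 for Glyma13g23950 and from 0.0138 to 0.208 for Glyma09g36840, and it was above 0.05 without R125, R111, R113, R155 or R157 for both, also without R154 and R156 for Glyma13g23950 and without R123 for Glyma09g36840. Without the number series as a covariate, Glyma09g36840 had an adjusted p of 0.0529, and without the filter the values were 0.0664 for it and 0.0719 for Glyma13g23950.

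A pair of gene models next to the anthocyanin glucosyltransferases also rose. *UGT78K2* on chromosome 8 and *UGT78K1* on chromosome 7 are related copies, and each has the next-numbered or preceding gene model beside it that was among the 128. The function of these neighbours is not given in the sources used here, and they were singled out after their values were seen. The neighbour of *UGT78K2* went from 26.2, 15.3, 23.5 and 11.1 RPKM to 71.2, 45.4, 66.8 and 31.5 RPKM, a log2 fold change of 1.48 (standard error 0.10, limma adjusted p of 0.0223). It was 1.48 in each line. The neighbour of *UGT78K1* went from 15.3, 11.5, 11.3 and 6.08 RPKM to 44.6, 26.5, 41.9 and 18.8 RPKM, a log2 fold change of 1.52 (standard error 0.14, limma adjusted p of 0.0291). In both, the libraries R154 to R157 were lower than the R111 to R125 libraries of the same line and stage, and the stages did not overlap. Without the number series as a covariate, their adjusted p was 0.134 and 0.110. It ran from 0.0438 to 0.148 and from 0.0221 to 0.151 when each library was left out, under 0.05 for both only without R154 or R156. How many reads these models share was not tested.

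**Figure D2:**
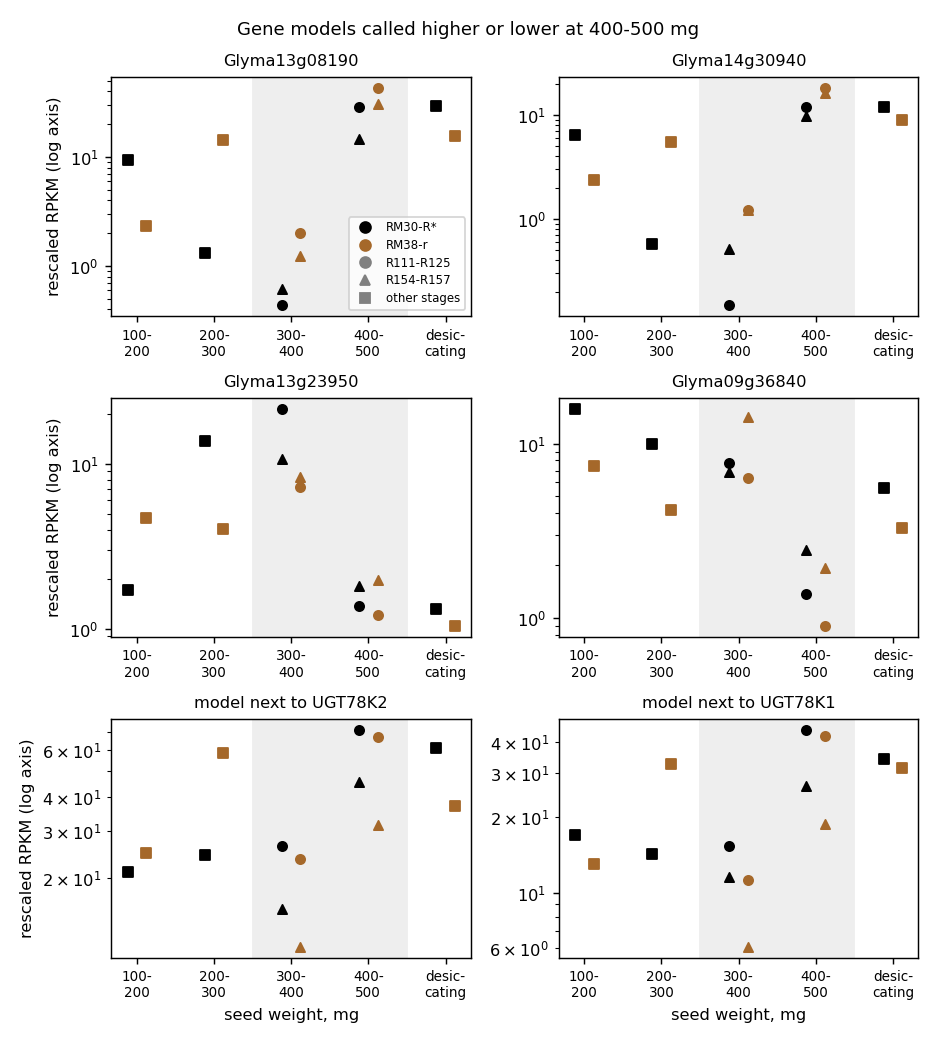
Rescaled RPKM on a log axis in all 14 libraries against the stage, with black points for RM30-R* and brown points for RM38-r, and grey shading for the stages compared. In all 6 panels the 4 libraries of 400–500 mg lie apart from the 4 of 300–400 mg, as for Glyma13g08190 with 14.8 to 43 RPKM after 0.439 to 2.01 RPKM.

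Other called gene models had higher levels than those above. The most abundant that rose lies on chromosome 8, with 40.9 and 20.5 RPKM in RM30-R* and 48.9 and 33.8 RPKM in RM38-r at 300–400 mg and 126.5, 129.8, 127.9 and 123.3 RPKM at 400–500 mg. Its 4 later values were close to each other in both lines and number series. Its shift of 1.87 on the log2 scale had a standard error of 0.20 and an adjusted p of 0.0314 by limma. A gene model on chromosome 10 went from 26.9, 28.2, 35.0 and 23.6 RPKM to 98.3, 123.2, 99.5 and 92.0 RPKM (log2 fold change 1.85, limma adjusted p of 0.027). The most abundant that fell lies on chromosome 5, with 64.7, 76.0, 53.9 and 62.7 RPKM at 300–400 mg and 28.6, 32.8, 28.5 and 37.8 RPKM at 400–500 mg. This is a log2 fold change of −1.0 (standard error 0.11, limma adjusted p of 0.0314). It was followed by one on chromosome 3 that fell from between 42.6 and 83.0 RPKM to between 21.9 and 30.8 RPKM. Neither stage overlapped the other in these gene models. They are given by chromosome, since no table used here pairs their numbers with a gene name.

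The loci that rose were spread over 19 of the 20 chromosomes, with 9 each on chromosomes 7 and 10 and none of the 1349 tested loci of chromosome 12. Of the 25 loci that fell, 6 were on chromosome 3. There, 5 of them lay within a stretch of 9 tested loci with consecutive numbers, and their 6 called models fell together from stage means of 6.55 to 8.53 RPKM to means of 3.32 to 4.51 RPKM, log2 fold changes of −0.91 to −0.81. Whether these models share reads or sequence was not tested. No other run of called loci, at most 5 tested loci apart, held more than 2.

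The called gene models moved in the same direction in both lines and in both number series, which the test over all 8 libraries favours. For the 128, the median log2 fold change was 1.28 in RM30-R* and 1.32 in RM38-r, and 1.41 in the R111 to R125 series and 1.21 in the R154 to R157 series. For the 33, it was −1.21 and −0.90 in the lines and −1.07 and −0.96 in the series. The 4 libraries of each stage did not overlap for 93.0% of the 128 and for all 33. Over all gene models tested, 5.89% were higher and 3.35% lower without overlap. Across the 40334 gene models, the shift of RM30-R* correlated with that of RM38-r with r = 0.25, a description over gene models, which are not independent replicates. These shifts share no library but share the number series. A change of more than 2-fold was measured for 1548 gene models in RM30-R* and 1782 in RM38-r, and for 483 in both, which is 31.2 and 27.1% of each list. Of the 483, 273 were higher in both lines, 95 lower in both, and 115 moved in opposite directions.

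The 6 libraries outside the comparison gave a further reading of the same gene models, with 1 library per line and stage and so without a replicate. The desiccating libraries, R110 and R112, have lower numbers than those of 200–300 mg, R122 and R124. In the R111 to R125 series, the later stage likewise has the lower numbers. In this reading too, the stage and any difference that goes with the numbers cannot be told apart. The 33 gene models that fell were all lower in the desiccating seed coats than at 200–300 mg, in RM30-R* and in RM38-r alike, with median log2 differences of −1.30 and −0.92. Over all gene models tested, 39.8 and 39.1% were higher in the desiccating library, with medians of −0.12 and −0.16. The 128 that rose were less uniform. In RM30-R*, 85.2% of them were higher in the desiccating library than at 200–300 mg (median 0.93), and in RM38-r 49.2% were (median −0.01). The RM38-r library of 200–300 mg, R124, already had them at a higher level. Relative to the mean of the 8 libraries of the comparison, the median of the 128 stood at 0.23 in R124 and at −0.50 in the RM30-R* library of that stage, R122, on the log2 scale. In the desiccating libraries it stood at 0.44 and 0.28, and in the 4 libraries of 300–400 mg between −0.74 and −0.58. From 100–200 to 200–300 mg, 41.4% of the 128 were higher in RM30-R* and 75% in RM38-r, beside 41.3 and 43.9% of all gene models. Whether this difference between R124 and R122 belongs to the line, the weight of the seeds taken or the library cannot be told apart.

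**Figure D3:**
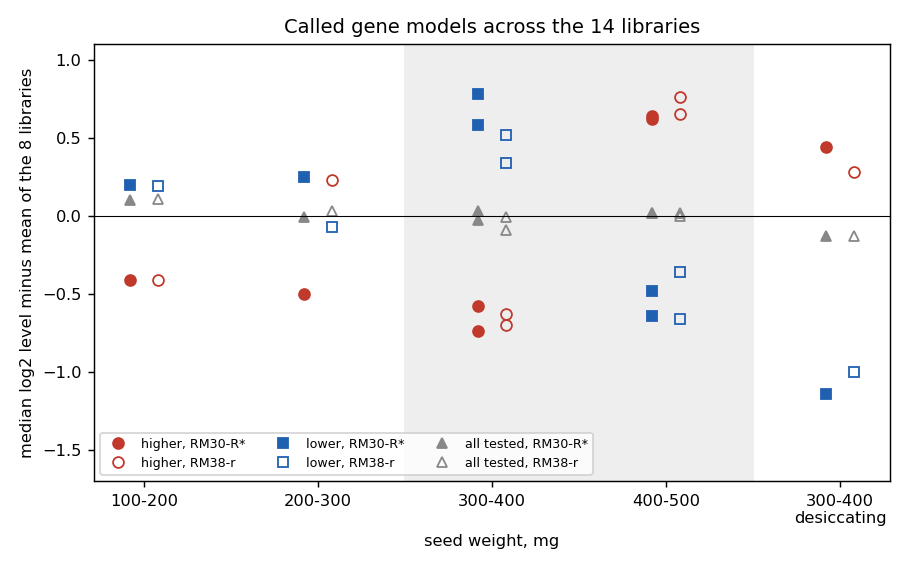
Median log2 level of the 128 gene models called higher (red circles), the 33 called lower (blue squares) and all 40334 tested (grey triangles) in each of the 14 libraries, relative to their mean over the 8 libraries of the shaded stages, with filled symbols for RM30-R* and open symbols for RM38-r. The red medians stand at 0.62 to 0.76 at 400–500 mg and at 0.28 to 0.44 in desiccating seed coats, and the blue medians fall to −1.14 and −1.0 there. The positions in the shaded stages follow from the choice of the gene models.

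None of the 13 anthocyanin pathway models changed between the stages over both lines at an adjusted p under 0.05, where 0.317% of all gene models rose and 0.0818% fell. Of these pathway models, 8 had a positive and 5 a negative log2 fold change, with a median of 0.12 and a range of −0.43 to 1.20, beside the median of 0.04 over all gene models. The lowest limma adjusted p was 0.161, and 3 had an unadjusted p under 0.05. For 5 of them (*CHS7*, *CHS8*, *F3H*, *F3′H* and *AOMT*) the difference was negative in RM30-R* and positive in RM38-r. The plot of the pathway genes gives the 4 differences behind each value.

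The chalcone synthase genes had lower values at 400–500 mg in both RM30-R* libraries, but not in all pairs of RM38-r. *CHS7* had 194 and 182 RPKM in RM30-R* and 57.0 and 43.5 RPKM in RM38-r at 300–400 mg. It then had 115 and 97.8 RPKM in RM30-R* and 48.2 and 101 RPKM in RM38-r. Its log2 difference between the stages was −0.82 in RM30-R* and 0.49 in RM38-r, and the interaction of −1.31 (standard error 0.51) had an unadjusted limma p of 0.0433 and an adjusted p of 0.842. *CHS8*, a near-identical copy that can share reads with it, gave −0.88 and 0.51. *CHI1A*, for chalcone isomerase, stayed between 10.2 and 16.5 RPKM in all 8 libraries. *F3H*, for flavanone hydroxylase, was at 110 and 121 RPKM in RM30-R* and 36.7 and 35.0 RPKM in RM38-r at 300–400 mg, and at 117, 74.4, 42 and 65.0 RPKM later.

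The hydroxylases of the B ring had shifts of opposite sign in RM30-R*, and neither passed the test over all gene models. *F3′H* directs flavonoids towards cyanidin and had 13.4 and 12.3 RPKM in RM30-R* and 2.20 and 2.72 RPKM in RM38-r at the earlier stage. Later it had 4.14 and 5.81 RPKM in RM30-R* and 3.61 and 5.39 RPKM in RM38-r. The lines did not overlap at the earlier stage and overlapped at the later. The log2 difference was −1.30 in RM30-R* and 0.74 in RM38-r. Their difference of −2.04 (standard error 0.28) had an unadjusted limma p of 0.000303, and an adjusted p of 0.390 over all gene models, which does not pass. *F3′5′H* directs flavonoids towards delphinidin. Among the 8 libraries it was at most 0.130 RPKM except in black seed coats of the later stage. Outside the comparison, its highest levels were 4.45 RPKM in desiccating RM30-R*, 0.678 RPKM in RM38-r at 200–300 mg and 0.304 RPKM in desiccating RM38-r. At 300–400 mg it had 0.0736 and 0.130 RPKM in RM30-R*, from 6 and 17 reads, and 0.0174 and 0.0201 RPKM in RM38-r, from 1 and 2 reads. Seed coats of 400–500 mg had 4.37 and 1.32 RPKM in RM30-R*, from 629 and 158 reads, and 0.0472 and 0.0646 RPKM in RM38-r, from 5 and 8 reads. On the deposited scale the later RM30-R* values were 4.66 RPKM (95% Wilson interval 4.31 to 5.04) and 1.44 RPKM (1.23 to 1.68), intervals that cover counting error only. The log2 difference was 2.31 in RM30-R* and 0.10 in RM38-r, and the interaction of 2.21 (standard error 0.59) had an unadjusted limma p of 0.00909 and an adjusted p of 0.697.

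Among the late steps, the copies of dihydroflavonol reductase differed. *DFR1*, the abundant copy, had 55.5 and 68.0 RPKM in RM30-R* and 21.2 and 27.7 RPKM in RM38-r at 300–400 mg, and 42.9, 26.8, 15.9 and 35.9 RPKM at 400–500 mg. The stages overlapped (log2 fold change −0.43, standard error 0.30). *DFR2* was at 0.307 and 0.393 RPKM in RM30-R* and 0.0829 and 0.108 RPKM in RM38-r, and then at 3.67 and 1.29 RPKM in RM30-R* and 0.383 and 0.25 RPKM in RM38-r. The later library was the higher in each of the 4 pairs of a line and number series, while the stages overlapped across lines. This amounts to 1.07 on the log2 scale (standard error 0.34), an unadjusted limma p of 0.0162 and an adjusted p of 0.207. It was 1.69 in RM30-R* and 0.45 in RM38-r. The anthocyanidin synthase copies *ANS2* and *ANS3*, which are alike and can share reads, were separated by line at both stages. *ANS2* had 11.9 and 17.5 RPKM in RM30-R* and 3.01 and 3.66 RPKM in RM38-r, and later 33.2 and 16.4 RPKM in RM30-R* and 3.77 and 5.33 RPKM in RM38-r. In RM30-R* the increase came from the R111 to R125 series alone.

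*UGT78K2*, the glucosyltransferase that completes anthocyanins, came closest to the threshold among the pathway genes. It had 7.08 and 4.35 RPKM in RM30-R* and 10.8 and 4.95 RPKM in RM38-r at 300–400 mg, and 12.0, 10.3, 10.7 and 9.75 RPKM at 400–500 mg. All later values were close to each other, and after rescaling the library R125 alone reached them at the earlier stage. The scale factor of R125 was 0.721, by which its deposited values were divided. On the deposited scale the stages did not overlap, with 4.62 to 7.78 RPKM at 300–400 mg and 9.87 to 12.8 RPKM at 400–500 mg. The means were 6.79 ± 2.91 and 10.7 ± 0.953 RPKM (SD, n = 4). On the log2 scale the shift was 0.69 (standard error 0.19), with an unadjusted limma p of 0.00764 and an adjusted p of 0.161. *UGT78K1* stayed near 1 RPKM, with 1.03 ± 0.395 and 1.03 ± 0.1 RPKM (SD, n = 4). *AOMT*, for an anthocyanin methyltransferase, ranged from 4.87 to 44.1 RPKM at 300–400 mg and from 5.17 to 16.7 RPKM at 400–500 mg, with a log2 difference of −1.26 in the R111 to R125 series and 0.55 in the R154 to R157 series.

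**Figure D4:**
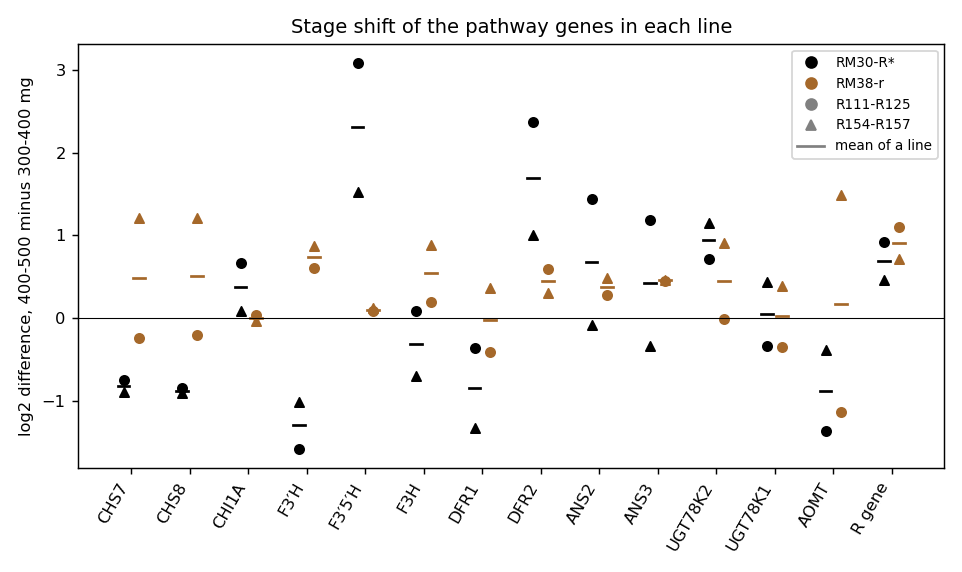
Log2 difference of rescaled RPKM plus 0.5 between 400–500 and 300–400 mg for the 13 pathway models and the *R* gene, with 1 point per line and number series (black for RM30-R*, brown for RM38-r, circles for R111 to R125, triangles for R154 to R157) and bars for the mean of a line. *F3′H* lies below 0 in RM30-R* (mean −1.30) and above 0 in RM38-r (0.74), and *F3′5′H* and *DFR2* stand at 2.31 and 1.69 in RM30-R*.

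The *R* gene itself, read here as its earlier model Glyma09g36990, was low at both stages. At 300–400 mg it had 0.294 and 0.115 RPKM in RM30-R*, from 8 and 5 reads, and 0.833 and 1.87 RPKM in RM38-r, from 16 and 62 reads. Later it had 0.999 and 0.349 RPKM in RM30-R*, from 48 and 14 reads, and 2.37 and 3.39 RPKM in RM38-r, from 84 and 140 reads. The later library was the higher in all 4 pairs of a line and number series, and the RM38-r libraries were above the RM30-R* libraries at each stage. Over both lines the shift was 0.80 on the log2 scale (standard error 0.28, unadjusted limma p of 0.0236, adjusted p of 0.238), with 0.69 in RM30-R* and 0.91 in RM38-r. The related MYB models Glyma09g36966 and Glyma09g37010 did not reach 0.5 RPKM in 2 of the 8 libraries and were not tested, and their highest values were 0.855 and 0.0241 RPKM. Of the neighbours of the *R* gene, Glyma09g36950 stayed at 14.2 ± 1.70 and 12.5 ± 1.44 RPKM and Glyma09g37000 at 1.19 ± 0.440 and 0.976 ± 0.372 RPKM (SD, n = 4). The transposase-related models Glyma05g23600 and Glyma15g21480, which resemble TgmR*, had log2 fold changes of 0.19 and 0.16 with adjusted p of 0.605 and 0.628 by limma.

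The shift was also fitted in each line alone, on the spread of all 8 libraries. In RM30-R*, 6 gene models of 3 loci passed the test, 0.0149% of those tested, all of them higher. In RM38-r, 17 gene models of 9 loci passed, 0.0421%, of which 9 were higher and 8 lower. When each library was left out, 0 to 5 gene models were called in RM30-R* and 0 to 52 in RM38-r. Of the calls made with all libraries, 3 in RM30-R* and 9 in RM38-r were also called over both lines. The test of whether the shift differed between the lines called 13 gene models of 4 loci, 0.0322% of those tested, and 2330 had an unadjusted p under 0.05. In all 13 the change in RM30-R* minus the change in RM38-r was positive. These calls were lost under several settings. None was made without the number series, with a pseudocount of 0.1, without the filter, with array weights or with the first gene model of each locus (1736 to 3379 gene models at an unadjusted p under 0.05), and 3 were made without a trend and 3 on deposited RPKM. They ranged from 0 to 14 when each library was left out.

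The largest difference was at Glyma13g35320 on chromosome 13, a locus without a function in the sources used here. At 300–400 mg it had 0.160 and 2.02 RPKM in RM30-R* and 98.6 and 282 RPKM in RM38-r. The later libraries had 58.4 and 215 RPKM in RM30-R* and 58.0 and 96.7 RPKM in RM38-r. The lines were thus far apart at the earlier stage and overlapped at the later. The log2 fold change was 6.45 in RM30-R* and −1.15 in RM38-r, with a difference of 7.60 (standard error 0.42, limma adjusted p of 0.0257). In the desiccating libraries its level was 5310 and 8264 RPKM. It was at 0 and 0.0874 RPKM at 100–200 mg, and at 3.69 and 22.8 RPKM at 200–300 mg. At Glyma09g35250 on chromosome 9 the shift was a fall in both lines, from 7.89 and 19.9 RPKM in RM30-R* and 34.2 and 105 RPKM in RM38-r to 4.92, 12.4, 1.89 and 7.30 RPKM. The change was −0.65 in RM30-R* and −3.81 in RM38-r on the log2 scale, and the difference was 3.16 (standard error 0.23, limma adjusted p of 0.0400). The RM38-r libraries were above the RM30-R* libraries of their number series before the shift and below them after it. A locus on chromosome 1 had a like pattern, with 16.9, 39.2, 61.4 and 147 RPKM and then 10.9, 25.3, 4.54 and 15 RPKM, and reads shared between these loci were not examined. The fourth locus, on chromosome 7, went from 0.183 and 0.152 to 1.52 and 2.08 RPKM in RM30-R* and from 6.63 and 6.57 to 1.36 and 1.89 RPKM in RM38-r. Without the number series, the adjusted p of Glyma13g35320 and of Glyma09g35250 was 1.0, and it ran from 0.00429 to 0.312 and from 0.064 to 0.393 when each library was left out.

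**Figure D5:**
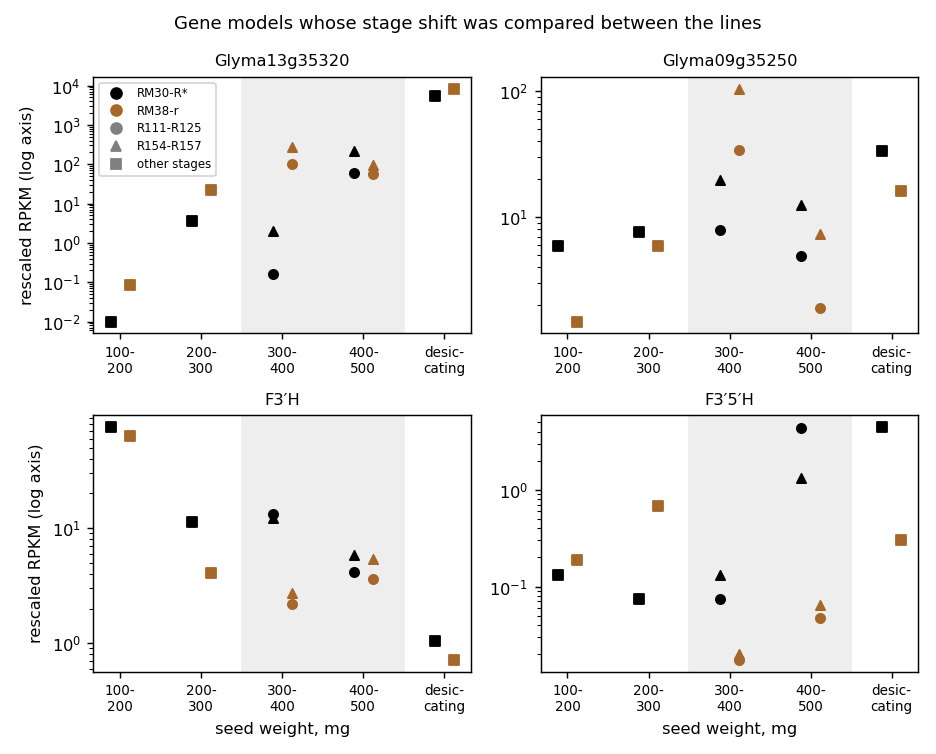
Rescaled RPKM on a log axis in all 14 libraries against the stage for Glyma13g35320, Glyma09g35250, *F3′H* and *F3′5′H*, with black points for RM30-R*, brown points for RM38-r and grey shading for the stages compared; a value listed at 0 is drawn at 0.01. Glyma13g35320 stands at 0.160 and 2.02 RPKM in RM30-R* against 98.6 and 282 RPKM in RM38-r at 300–400 mg, and the lines overlap at 400–500 mg.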

How the data were processed

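RNA from seed coats was sequenced by the authors as single reads of 100 nt and aligned with Bowtie 1 to the Glyma1 gene models. A read was counted at each of its alignments, up to a limit above which the authors discarded the read. The deposited values are RPKM, of 69425 complete gene models, and 0 columns of values were left over. Mapped totals and reads were recovered from the whole-number steps of low RPKM values. Columns were rescaled to equal 75th percentiles of values above 0 after leaving out loci starting Glyma13g118 or Glyma13g119, and the 40334 gene models that reached 0.5 RPKM in 2 of the 8 libraries were tested with limma 3.58.1 in R 4.3.3 on log2(value + 0.5), a scale that understates changes of low values. The test was two-sided, with a trend, Benjamini-Hochberg adjustment and a threshold of 0.05. Its code was also run on simulated independent normal values with the same spread for all gene models. These lack the differing spreads and the shared series deviations of the real libraries, so they do not show how the test performs here. The rest used Python 3.11.15. The gene models, lists and tests were chosen with earlier results of these data known. Named genes are the pathway, MYB, transposase and chromosome 9 models of the study, and those with the largest fold change among non-overlapping calls with a mean of at least 5 RPKM. The reference table matched 0 gene model numbers, so lists by gene name, promoter sequences and motifs were not used here, and 2 numbers per direction are printed in place of 10. Not analysed here were *ANR1*, *ANR2*, *CHI2* and Glyma18g49670.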

Additional observations from a re-analysis of the deposited data

Results flagged for a closer look

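In R125, the RM38-r library of 300–400 mg in the R111 to R125 series, the chromosome 13 group held 36.2% of the summed RPKM, far from the 1.91 to 6.09% of the other libraries of that stage. It was the only library set apart in this way among 54 groups of 4 libraries examined, where chance sets apart about 1 in 20.

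The stage shift differed between the lines by 7.60 on the log2 scale for Glyma13g35320 and by 3.16 for Glyma09g35250 (RM30-R* minus RM38-r), by the limma test of the interaction with adjusted p of 0.0257 and 0.0400. The call was lost in 5 and 7 of 11 other settings. With each library left out in turn, the difference ranged from 7.08 to 8.12 and from 3.00 to 3.32.

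For *F3′H*, every RM30-R* library of 400–500 mg was below every RM30-R* library of 300–400 mg, and every RM38-r library of 400–500 mg was above those of 300–400 mg. The difference of −2.04 did not pass the test of the interaction (limma adjusted p of 0.390).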

How the results depend on the processing

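Alternatives were pseudocounts of 0.1 and 1, no filter, a filter of 1 RPKM, deposited RPKM, 75th percentiles over all loci, quantile normalization, no number series (the replicate block), no trend, array weights (whose fit stopped before full convergence), the first model of each locus, and leaving out each library. The calls over both lines were 128 higher and 33 lower, and became 4 and 0 without a filter, where 58222 gene models were tested (3113 lower at an unadjusted limma p under 0.05), and 208 and 11 on deposited RPKM, where the median of all gene models was 0.14 in place of 0.04. Within RM30-R*, 6 calls became 0 with a pseudocount of 0.1 (3846 at an unadjusted limma p under 0.05), 3 without a filter, 14 on deposited RPKM, 2 without the block, 3 without a trend and 3 with the first model. Within RM38-r, 17 became 10 without a filter, 35 on deposited RPKM, 7 without the block, 11 with array weights and 7 with the first model. The interaction calls, 13, became 3 on deposited RPKM and 3 without a trend, and 0 by limma with a pseudocount of 0.1, without a filter, without the block, with array weights and with the first model (1736 to 3379 at an unadjusted p under 0.05). Without each library in turn, the calls ranged from 0 to 87 higher, 0 to 20 lower, 0 to 5 in RM30-R*, 0 to 52 in RM38-r and 0 to 14 for the interaction, with at least 1167 gene models at an unadjusted limma p under 0.05 in each. In the same runs the log2 stage shift, never called, changed sign for *CHS7* (−0.58 to 0.077), *CHS8* (−0.60 to 0.062), *F3′H* (−0.60 to 0.074), *F3H* (−0.14 to 0.39), *UGT78K1* (−0.074 to 0.14) and Glyma09g37000 (−0.40 to 0.058). The cause of these changes was not tested. Without the block, 88 gene models were called higher and 23 lower over both lines, 81 and 20 of them among the 161. The labels do not number the replicates. Deviations of the 2 series correlated between the 4 groups of line and stage by 0.07 to 0.61, above 0.1 in 5 of 6 cases. The series is a covariate because the comparison was defined with it, and the labels do not show a pairing. Depth limits *F3′5′H*, *DFR2* and the *R* gene, which had under 25 reads in several libraries.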

Other observations

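The gene models called higher at 400–500 mg had these levels through the series, where the values at 300–400 and 400–500 mg follow in part from how the gene models were chosen. In RM30-R*, the median of the 128 stood at −0.41 at 100–200 mg, −0.50 at 200–300 mg, −0.74 and −0.58 at 300–400 mg and 0.64 and 0.62 at 400–500 mg, on the log2 scale relative to the 8 libraries of the comparison. In RM38-r, it was −0.41, then 0.23 in R124, and then −0.70 and −0.63 at 300–400 mg. Glyma13g08190 is an example, with 9.38, 1.32, 0.439 and 0.620 RPKM in the RM30-R* libraries of 100–200, 200–300 and 300–400 mg, and 2.35, 14.3, 2.01 and 1.23 RPKM in those of RM38-r. These stages before 300 mg have 1 library per line, and no test was made.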
